A study of Macaca mulatta with 56 samples.

Results

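The cytosolic ribosomal proteins are the proteins that build the small (40S) and large (60S) subunits of the ribosome outside mitochondria. Members were the rows of the deposited table whose Ensembl macaque symbol begins with RPL or RPS and a digit, or is RPLP0, RPLP1, RPLP2 or RPSA, without the RPS6K kinases. The rule gave 81 of 17807 rows, which carry 76 symbols. Of these, 36 rows name 40S proteins and 43 name 60S proteins, and the other 2, RPS19BP1 and RPL7L1, carry a matching symbol without being ribosomal proteins. Some symbols, among them RPS2, RPS24, RPS27A and RPSA, stand on 2 identifiers each. RPLP0, RPS6 and RPL11 are not analysed here.

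The libraries hold messenger RNA from the amygdala, the hippocampus, the occipital and the prefrontal cortex, 4 brain regions of 14 female rhesus macaques aged 19.4 to 23.2 years. HT animals (7, labelled OvH-HT) carried estradiol capsules and reached a serum estradiol of 82.1 ± 0.9 pg/mL, and OvH animals (7) carried empty capsules and had 6.6 ± 0.2 pg/mL. All 14 animals had lost ovaries and uterus about 6 weeks after they were put on a Western-style diet, in which fat made 36% and sugars 18.5% of the calories, where chow had 13% fat and 6% sugars. Brains were taken after a study given as 30 months, while the estradiol averages are given over 32 months.

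Every ribosome needs about equal numbers of each of its proteins, and their messenger RNAs are short, abundant and used in all cell types. Most begin with a terminal oligopyrimidine (TOP) motif, through which TOR kinase signalling sets how much of them is translated, together with the messenger RNAs of elongation factors. In neurons ribosomes work in the cell body and also in dendrites and axons, and mutations that lower a single ribosomal protein cause human anaemias and growth disorders.

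The authors normalized the read counts to the upper quartile. Values are printed as these normalized reads or as kreads (1000 normalized reads), and differences are log2 differences of the value plus 1. Depth was 34.63 to 93.34 Mreads (1000 kreads each, not normalized) per library, with a median of 59.88. In amygdala the depth was 42.2 to 71.7 Mreads in HT and 51.3 to 93.3 Mreads in OvH animals, while the normalized totals were 62.4 to 75.8 Mreads in HT and 55.9 to 69.1 Mreads in OvH animals. Under part of the identifiers the amygdala libraries and those of the other regions hold different transcripts. A member was therefore used outside amygdala only if its mean log2 level there was within 2 of that in amygdala, which held for 63 of the 81 members (77.8%) and for 75.9% of all rows. The members just inside this limit were the second identifiers of RPS27A (-1.70), RPSA (-1.80) and RPS24 (-1.83), and those outside included RPL22L1 (-2.45) and RPL30 (-7.74).

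Members of the list themselves put 3 libraries in doubt. RPS4Y1 and RPS4Y2 are the Y-linked copies of RPS4X, a protein of the 40S subunit, and all animals are labelled female. RPS4Y1 had 7532 normalized reads in the hippocampus library labelled animal 30 and 16124 in the one labelled animal 43, both OvH, and RPS4Y2 had 2766 and 5598. The amygdala library of OvH animal 32 had 113 for RPS4Y1 and 63.3 for RPS4Y2. In the other 53 libraries neither exceeded 7.96 normalized reads, which is at most 6 reads. The Y-linked genes DDX3Y, KDM5D, UTY, EIF1AY, USP9Y and ZFY, chosen after RPS4Y1 was seen, lay between 543 and 4306 in those 2 hippocampus libraries and between 12.1 and 58.0 in the amygdala library of animal 32. Both Y-linked copies together made 35.0% of the RPS4 signal in the hippocampus library of animal 30 and 23.9% in that of animal 43. Counts of calls, medians and spreads of the members that rest on hippocampus are given with and without animals 30 and 43. Other counts, standard errors and single members of that region are given with them unless stated.

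In the amygdala the ribosomal protein transcripts were more abundant in HT than in OvH animals, on both subunits and in most of their members. By limma with Benjamini-Hochberg adjustment, 65 of the 79 members tested were higher and 0 lower in HT animals, where the background over all 16129 rows tested was 6.16% higher and 0.732% lower (6.89% in either direction). That background moved with single animals: of all rows, 534 were higher and 14 lower without animal 33, and 1629 higher and 733 lower without animal 32, whose amygdala library holds Y-linked reads, against 994 and 118 with all animals. The members numbered 59 higher without animal 33 and 69 without animal 32, with 0 lower in both. The median difference of the members was 1.21, against 0.011 for all rows tested. Of the 34 tested 40S members 30 were higher, with a median of 1.44, and of the 43 tested 60S members 35 were higher, with a median of 1.13. RPS4Y1 and RPS4Y2 fell below the filter of a mean of 10, and the lowest mean among the tested members was 100.2, so no other member was near the filter. In tissue, more cells with these transcripts and more of them per cell cannot be told apart.

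**Figure D1:**
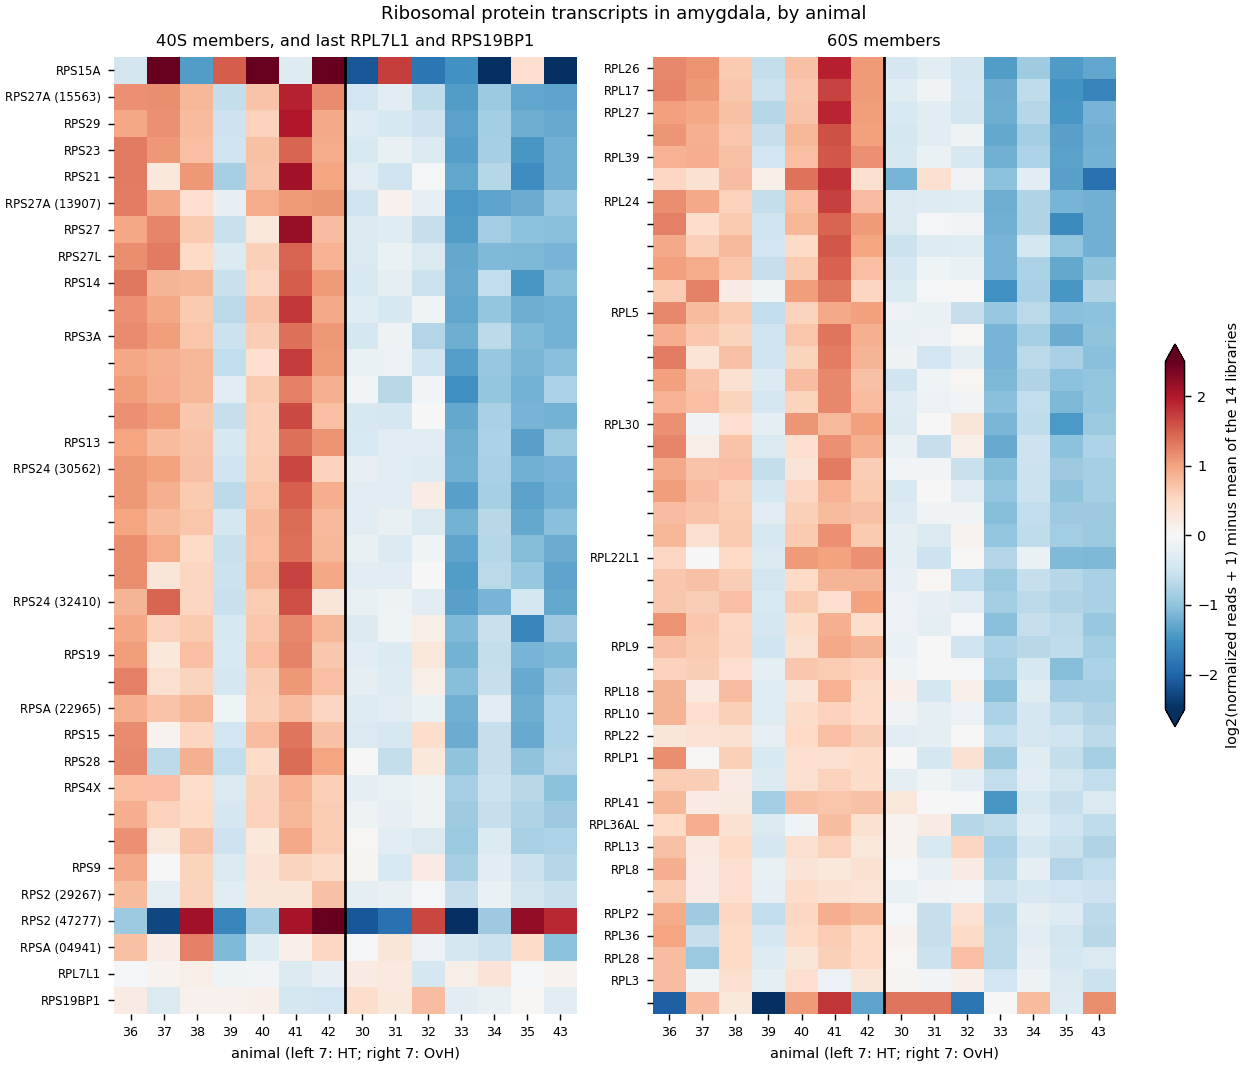
Amygdala level of each tested member (rows, by subunit and by size of the HT minus OvH difference) in each of the 14 animals (columns, HT on the left, OvH on the right), as log2(normalized reads + 1) minus the mean of the 14 libraries. Animal 39 was the lowest HT animal in 71 of 79 members, and the rows RPS15A and the second RPS2 identifier do not follow the others. Rows are labelled where the text names the member.

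The separation of the groups was not complete. All 7 HT animals lay above every OvH animal for 1 of 79 members, RPSA, where 0.744% of all rows did so. This single member is close to the share over all rows. At least 6 of the 7 HT animals lay above every OvH animal for 55 members, where the background was 5.16%. Animal 39 was the lowest HT animal for 71 of 79 members. The highest HT animal was 41 for 47 members and 36 for 24, and the lowest OvH animal was 33 for 40 members, 35 for 24 and 43 for 12. The map of amygdala levels by animal shows these columns as stripes that run through nearly all members.

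Among the 40S proteins, RPS27A (ENSMMUG00000015563), made as a fusion with ubiquitin, had the largest difference of all members that passed. It had 120, 401 and 689 kreads (lowest, median and highest) in HT animals, against 69.0, 95.1 and 150 kreads in OvH animals. HT animal 39 lay within the OvH range and the other 6 lay above it, and the log2 difference was 1.81 (SE 0.31, limma adjusted p = 0.00674). Its second identifier (ENSMMUG00000013907) had 1.41, 3.13 and 3.91 kreads in HT and 0.593, 0.832 and 1.74 kreads in OvH animals. Again all HT animals but animal 39 lay above the OvH range, and the difference was 1.59 (SE 0.27, limma adjusted p = 0.00674).

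RPS29, a small zinc-binding protein of the 40S head, had 25.8, 71.4 and 149 kreads in HT and 14.6, 20.6 and 29.6 kreads in OvH animals (1.69, SE 0.29, limma adjusted p = 0.00674). RPS23, which lines the decoding centre, had 73.8, 200 and 289 kreads in HT and 38.3, 58.6 and 92.7 kreads in OvH animals (1.65, SE 0.28, limma adjusted p = 0.00674). For both, animal 39 alone of the HT animals fell into the OvH range. RPS21 (1.60, SE 0.35, limma adjusted p = 0.0132) and the zinc-finger protein RPS27 (1.58, SE 0.31, limma adjusted p = 0.00792) showed the same arrangement of animals.

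RPS27L, a close paralog of RPS27, had 4.16, 9.57 and 14.3 kreads in HT and 2.17, 2.43 and 4.70 kreads in OvH animals. It also had 6 of 7 HT animals above the OvH range, and its difference of 1.58 (SE 0.26, limma adjusted p = 0.00674) was as large as that of RPS27. RPS14, the 40S protein whose loss is known from a human bone marrow disorder, had 92.6, 246 and 388 kreads in HT against 49.5, 89.1 and 117 kreads in OvH animals (1.58, SE 0.29, limma adjusted p = 0.0069). RPS4X, the X-linked copy, had 70.9, 138 and 165 kreads in HT and 44.9, 62.9 and 82.7 kreads in OvH animals (1.04, SE 0.20, limma adjusted p = 0.00783). Its difference was smaller than that of most 40S members, with the same 6 HT animals above the OvH range.

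RPSA (ENSMMUG00000022965), a 40S protein also known as a laminin receptor, was the single member without overlap. It had 124, 220 and 250 kreads in HT animals and 57.2, 108 and 120 kreads in OvH animals, so that even animal 39 stood above the highest OvH animal. The log2 difference was 1.21 (SE 0.21, limma adjusted p = 0.00674). RPS2 (ENSMMUG00000029267), near the entry of the messenger RNA channel, had one of the smallest differences that passed, 0.62 (SE 0.18, limma adjusted p = 0.046). It had 46.4, 69.0 and 97.0 kreads in HT against 37.6, 48.4 and 55.3 kreads in OvH animals, with 5 HT animals above the OvH range.

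Among the 60S proteins, RPL26, which lies near the exit of the peptide tunnel, led with 64.6, 202 and 374 kreads in HT against 36.2, 52.1 and 80.8 kreads in OvH animals (1.76, SE 0.31, limma adjusted p = 0.00674). RPL17, also at the tunnel exit, had 89.6, 272 and 420 kreads in HT and 41.3, 84.3 and 123 kreads in OvH animals (1.68, SE 0.32, limma adjusted p = 0.00783). RPL27 had 42.9, 138 and 264 kreads in HT and 25.6, 43.1 and 59.0 kreads in OvH animals (1.62, SE 0.31, limma adjusted p = 0.00783). In each of these animal 39 was the HT animal inside the OvH range, and animal 41 was the highest.

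RPL5, which with RPL11 and a small ribosomal RNA forms the particle that binds MDM2, had 77.2, 202 and 269 kreads in HT and 56.7, 73.4 and 106 kreads in OvH animals. The difference was 1.31 (SE 0.25, limma adjusted p = 0.00783), with 6 HT animals above the OvH range. RPL10, added late to the large subunit near its catalytic centre, had 68.1, 117 and 151 kreads in HT and 48.4, 62.4 and 78.4 kreads in OvH animals (0.88, SE 0.18, limma adjusted p = 0.00861). Here too animal 39 was the HT animal that overlapped, although the difference was smaller.

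Of the paralogs of 60S proteins, RPL22L1 and RPL36AL passed as well, and RPL7L1 did not. RPL22, a protein that mouse ribosomes can do without, had 23.6, 35.2 and 45.6 kreads in HT and 17.3, 20.1 and 27.0 kreads in OvH animals (0.77, SE 0.15, limma adjusted p = 0.00783). Its paralog RPL22L1 had 3.05, 5.63 and 8.70 kreads in HT and 1.80, 2.73 and 3.99 kreads in OvH animals (1.10, SE 0.25, limma adjusted p = 0.0141). The pair rose together in HT animals. RPL36AL, a copy of RPL36A, had 4.91, 8.25 and 11.8 kreads in HT and 3.85, 4.43 and 7.27 kreads in OvH animals, with 5 HT animals above the OvH range (0.71, SE 0.20, limma adjusted p = 0.0426).

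**Figure D2:**
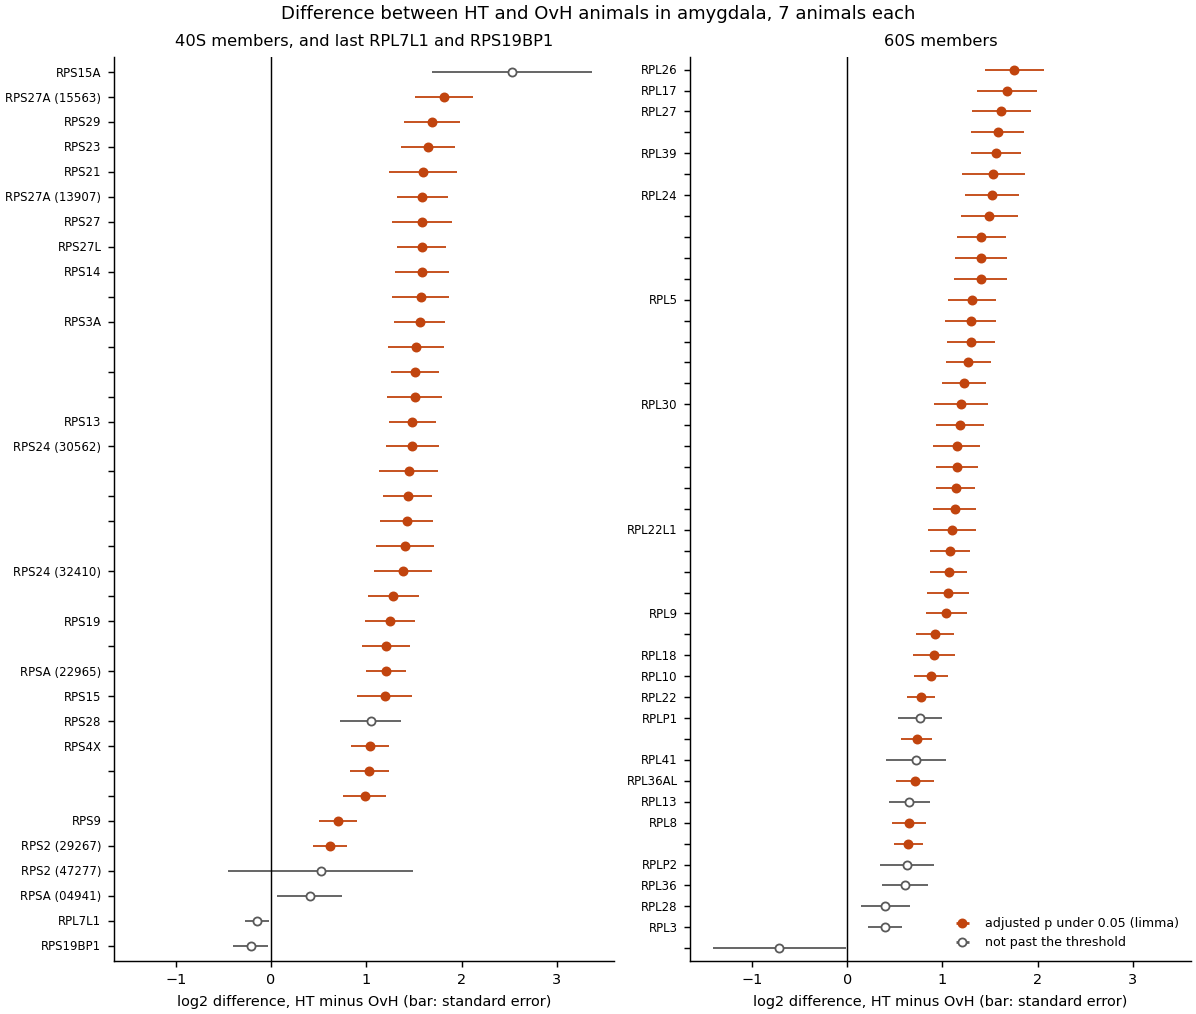
Log2 difference between HT and OvH animals in amygdala (x axis; point, limma estimate; bar, standard error) for the 79 tested members, 40S on the left and 60S on the right, with filled points where the adjusted p was under 0.05. The 40S members that passed ran up to 1.81 (RPS27A) and the 60S members up to 1.76 (RPL26), and 14 members did not pass.

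Of the 14 members that did not pass, 11 had a difference above 0. The stalk proteins RPLP1 and RPLP2, acidic proteins that recruit elongation factors to the large subunit, were among them. RPLP1 had 36.5, 63.7 and 107 kreads in HT and 25.7, 35.1 and 62.4 kreads in OvH animals (0.77, SE 0.23, limma adjusted p = 0.0543). RPLP2 had 9.66, 25.8 and 34.1 kreads in HT and 10.9, 14.3 and 22.9 kreads in OvH animals (0.63, SE 0.28, limma adjusted p = 0.206). For each stalk protein 5 HT animals stood above the OvH range, and for RPLP2 the lowest value of all was that of HT animal 37.

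Animal 37 was low in a few other members too, while it was among the higher HT animals for RPS27A, RPL26 and RPS29. For RPS28, a 40S protein, animal 37 had 21.9 kreads, the lowest of the HT animals, whose median was 64.0 kreads, against an OvH median of 22.7 kreads (1.05, SE 0.32, limma adjusted p = 0.0611). For RPL28 it had 6.21 kreads, the lowest of all 14, with medians of 16.4 kreads in HT and 9.26 kreads in OvH animals (0.40, SE 0.26, limma adjusted p = 0.403). For RPL36 it had 10.5 kreads, with medians of 22.2 kreads in HT and 11.4 kreads in OvH animals (0.61, SE 0.24, limma adjusted p = 0.159). This animal was picked out after its values were seen.

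RPL13 (0.65, SE 0.21, limma adjusted p = 0.0774) and RPL3, a protein next to the catalytic centre (0.40, SE 0.18, limma adjusted p = 0.215), also missed the threshold. RPL41, the smallest ribosomal protein, had only 55.1 to 181 normalized reads in HT and 36.6 to 123 in OvH animals (0.72, SE 0.31, limma adjusted p = 0.186). The second identifier of RPSA (ENSMMUG00000004941) had 41.6 to 219 in HT and 44.0 to 126 in OvH animals (0.41, SE 0.34, limma adjusted p = 0.535). At these low levels the groups overlapped. The 2 members that are no ribosomal proteins did not move with the rest. RPS19BP1, which binds RPS19, had a difference of -0.21 (SE 0.18, limma adjusted p = 0.545) and RPL7L1, a factor of ribosome assembly, of -0.15 (SE 0.12, limma adjusted p = 0.530).

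RPS15A and the second identifier of RPS2 did not pass and varied widely between animals of the same group. RPS15A had 0.423, 3.18 and 12.3 kreads in HT and 0.150, 0.317 and 3.67 kreads in OvH animals, and its difference of 2.53 (SE 0.84, limma adjusted p = 0.0825) was the largest of all members. The high animals were 37, 42, 40 and 39 among the HT animals, the last of which was low for most other members, and 31 among the OvH animals. The second identifier of RPS2 (ENSMMUG00000047277) had 0.366 to 17.5 kreads in HT and 0.270 to 8.22 kreads in OvH animals (0.52, SE 0.97, limma adjusted p = 0.812).

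The call was stable for most members. Of the 65 members that passed, 44 passed in each of the 24 or 25 alternatives run for them. The rest included members with large differences. RPL37 (1.53) and RPL23 (1.27) each passed in 24 of 25 alternatives, while RPL22, with a smaller difference (0.77), passed in all 25. RPL36AL lost its call without each animal except 30, 31, 32, 39 and 40 (limma adjusted p 0.0690 to 0.103), RPL8 without each except 30, 31, 32 and 39 (0.0530 to 0.0971), RPS9 without each except 30, 32, 37 and 39 (0.0603 to 0.112), and RPS2 without each except 32, 37 and 39 (0.0524 to 0.112). RPL18 lost it without 33, 36 or 43 (0.0511 to 0.0536) and RPS15 without 33, 35 or 36 (0.0501 to 0.0550). RPS28 gained it without 32, 37 or 39 (0.0145 to 0.0284), RPLP1 without 32 or 39 (0.0113 and 0.0142), RPL13 without 32 or 39 (0.01005 and 0.0184), RPS15A without 31 or 38 (0.0262 and 0.0476), RPL36 without 32 (0.0410) and RPL41 without 39 (0.0424). With libraries scaled to equal totals, 61 members were higher and 0 lower while the median of all rows moved to -0.20, and the split of all calls turned to 617 higher and 1013 lower, against 994 higher and 118 lower as deposited. With the same rows, edgeR on the recovered reads called 675 of all rows higher and 343 lower (62 members higher, 0 lower) and DESeq2 1303 and 450 (67 members higher, 0 lower).

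Some markers of myelin, the lipid sheath made by oligodendrocytes, were higher in HT amygdalas too. Their summed level was 804 to 1642 kreads in HT and 363 to 1281 kreads in OvH amygdalas, and 3 of the 15 marker rows passed by limma, each higher in HT animals (MBP 1.14, GJB1 1.14 and MOBP 1.46, the last on 1 of its 2 identifiers). With the mean myelin level as a covariate, 46 members were higher and 0 lower in HT animals, against 65 and 0 without it, while the calls over all rows were 273 higher and 21 lower, against 994 and 118. The members' median was 1.24 with the covariate. The neuronal markers had 0 of 15 higher and 2 lower, SYP (-0.71) and DNM1 (-0.66), with sums of 547 to 756 kreads in HT and 605 to 879 kreads in OvH amygdalas. Of the astrocyte list 1 of 10 rows passed (S100B, 1.05), of the microglia list 1 of 9 (AIF1, 1.06), of the choroid plexus list 1 of 9 (KCNE2, 1.07) and of the endothelial list 0 of 10, with 0 lower in each. Over all rows tested 6.16% were higher and 0.732% lower, so single calls in lists of 9 or 10 rows are close to that share. The sums were 438 to 727 kreads in HT and 386 to 763 kreads in OvH amygdalas for astrocytes, 18.5 to 27.3 and 15.8 to 37.4 kreads for microglia, 0.942 to 5.96 and 0.651 to 26.2 kreads for choroid plexus, and 5.24 to 7.99 and 6.26 to 11.5 kreads for endothelium, and no marker row was at 0. With libraries scaled to equal totals the members' median was 0.998, against 1.21 as deposited. Beyond this rescaling the part of the normalized total in the members' difference was not tested. The part of the other cell types and of depth was not tested either.

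Ribosomal components and partners outside the naming rule were read from lists. RACK1, a scaffold on the 40S subunit, averaged 73.3 ± 19.4 kreads in HT and 41.8 ± 10.2 kreads in OvH amygdalas (SD, n = 7 each), and rose by 0.80 (SE 0.19, limma adjusted p = 0.0193). FAU, which encodes a ubiquitin-like protein fused to a 40S protein, averaged 117 ± 43.9 kreads in HT and 46.2 ± 16.9 kreads in OvH animals, and rose by 1.32 (SE 0.29, limma adjusted p = 0.0123). Both had 6 of 7 HT animals above the OvH range.

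Other messenger RNAs that carry a TOP motif were higher in part: 8 of 19 passed and 0 were lower, with a median of 0.47, where 6.16% of all rows were higher and 0.732% lower. The largest was the elongation factor EEF1B2 at 1.34 (SE 0.25, limma adjusted p = 0.00783), with 81.2 ± 25.4 kreads in HT and 31.5 ± 9.43 kreads in OvH animals (SD, n = 7 each). NACA, which binds nascent chains, rose by 0.94 (SE 0.19, limma adjusted p = 0.00836), and EEF1A1, which carries transfer RNAs to the ribosome, by 0.83 (SE 0.24, limma adjusted p = 0.0433). EEF2, the translocation factor, did not pass (-0.06, SE 0.18, limma adjusted p = 0.888). Neither did EIF4B (-0.21, SE 0.18, limma adjusted p = 0.547) or the poly(A) binding protein PABPC1 (0.17, SE 0.13, limma adjusted p = 0.496). Of 39 ribosome assembly genes 1 rose (NOP10, 0.65) and 0 fell, with a median of -0.07. Of 20 genes of TOR signalling and TOP regulation 1 rose (TIA1, 0.77) and 0 fell, with a median of -0.14. For these 2 lists a single call is close to the share over all rows.

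The share of the library in ribosomal protein transcripts was also higher in HT amygdalas, given as values without a test. All 81 members made 5.84, 11.6 and 16.1% of the normalized total (lowest, median and highest) in HT amygdalas, against 3.97, 5.24 and 6.84% in OvH amygdalas. The 63 members with matching levels made 4.71, 9.38 and 13.0% in HT and 3.22, 4.23 and 5.57% in OvH amygdalas. Animal 39 was the HT animal within the OvH range, and the other 6 lay above it.

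Outside amygdala the same 63 members made smaller shares, which the matching rule touches and which are given with no test. In hippocampus they made 1.95, 2.14 and 4.40% in HT and 1.63, 3.18 and 6.69% in OvH animals. Without animals 30 and 43 the 5 OvH hippocampi had 2.03, 3.18 and 4.61%. In occipital cortex the shares were 2.16, 2.68 and 6.84% in HT and 2.32, 2.73 and 5.91% in OvH animals, and in prefrontal cortex 2.82, 2.99 and 4.68% in HT and 2.55, 3.46 and 4.76% in OvH animals. The groups overlapped widely in each of these regions, and the high animals changed with the region. Animal 40 had the highest HT share in hippocampus, occipital and prefrontal cortex but the second lowest in amygdala. Animal 39, the lowest HT amygdala, had 4.02% in hippocampus, the third highest of the HT hippocampi.

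**Figure D3:**
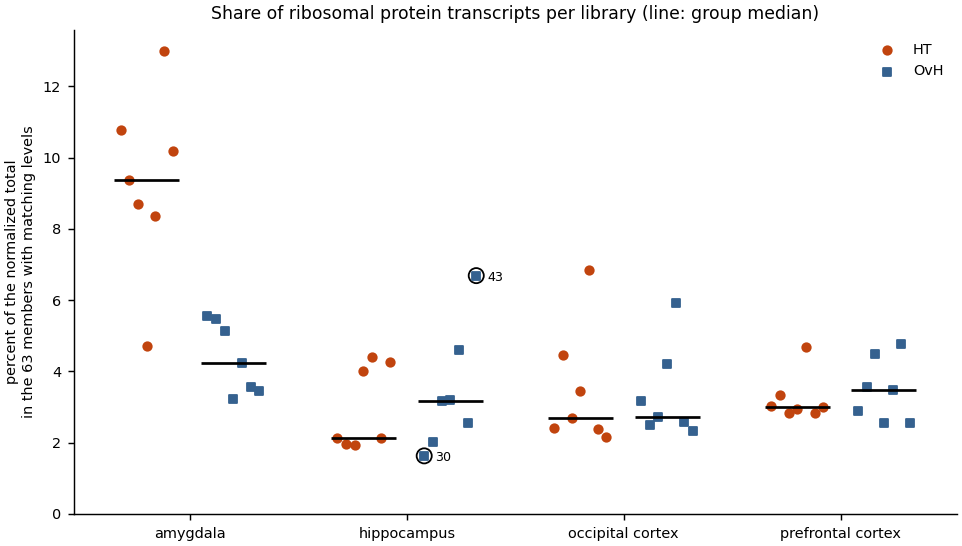
Share of the normalized total in the 63 members with matching levels (y axis, percent) for each library, by region, with HT animals to the left of OvH animals and a line at each group median. In amygdala 6 of 7 HT animals lie above every OvH animal, and in the other regions the groups overlap; rings mark the hippocampus libraries labelled 30 and 43, which carry Y-linked transcripts.

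In the other 3 regions no member differed between HT and OvH animals past the threshold. In hippocampus limma called 0 of 63 members, as it called 0% of all 16317 rows (335 rows at an unadjusted p under 0.05), and 0 members had an unadjusted p under 0.05. The median difference was -0.17 with 59 of 63 differences below 0, and -0.18 with 59 of 61 below 0 without animals 30 and 43. Single animals set its sign, as it was 0.03 without animal 43 and -0.37 without animal 30. The summed level of the choroid plexus markers was 1466 kreads in HT animal 40 and 1328 kreads in OvH animal 33, against 2.502 to 50.0 kreads in the other HT and 0.567 to 19.7 kreads in the other OvH hippocampi, and without these 2 animals the median was -0.24 with 0 members called. In occipital cortex limma called 0 of 61 members and 0% of 16138 rows (303 unadjusted), with a median of 0.01 and 29 differences below 0 (-0.21 without animal 40 and 0.15 without animal 34), and in prefrontal cortex 0 of 61 members and 0% of 16286 rows (603 unadjusted), with a median of -0.11 and 51 differences below 0. Since the members varied together from animal to animal, these counts of signs are not counts of independent observations. In neither cortex had a member an unadjusted p under 0.05, and edgeR and DESeq2 called 0 members in both.

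The smallest p of any member in these regions belonged to rows with wide overlap between the groups. In hippocampus RPL9 had 26.5, 35.0 and 51.5 kreads in HT and 31.1, 39.3 and 84.3 kreads in OvH animals (-0.22, SE 0.22, limma unadjusted p = 0.344). RPS4Y1 (-3.49, SE 2.18) and RPS4Y2 (-3.41, SE 1.94) had lower p, which rest on the libraries of animals 30 and 43. They were the 2 members that DESeq2 called lower in HT hippocampus, where edgeR called 0, and neither was tested without those libraries. In occipital cortex the first was RPL28, with 4.68, 5.99 and 11.3 kreads in HT and 6.58, 8.05 and 10.95 kreads in OvH animals (-0.31, SE 0.20, limma unadjusted p = 0.145), followed by the second RPSA identifier (-0.67, SE 0.50) and RPLP2 (-0.23, SE 0.24). In prefrontal cortex the first was the second RPS24 identifier, with 0.414, 0.543 and 1.23 kreads in HT and 0.547, 0.820 and 1.74 kreads in OvH animals (-0.53, SE 0.29, limma unadjusted p = 0.0834). The second RPSA identifier (-0.63, SE 0.37) and RPL13 (-0.23, SE 0.18) followed.

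The highest difference of any member was 0.33 in hippocampus, and 0.21 and 0.08 in the occipital and prefrontal cortex. RPS27A (ENSMMUG00000015563) had 32.7, 39.7 and 92.4 kreads in HT and 26.9, 54.1 and 189 kreads in OvH hippocampi, a difference of -0.19 (SE 0.39). It had 39.3, 50.2 and 241 kreads in HT and 42.0, 52.9 and 139 kreads in OvH occipital cortices (0.05, SE 0.36). In prefrontal cortex it had 53.7, 61.4 and 114 kreads in HT and 44.5, 75.6 and 112 kreads in OvH animals (-0.07, SE 0.21). Without animals 30 and 43 the hippocampus count stayed at 0 members.

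**Figure D4:**
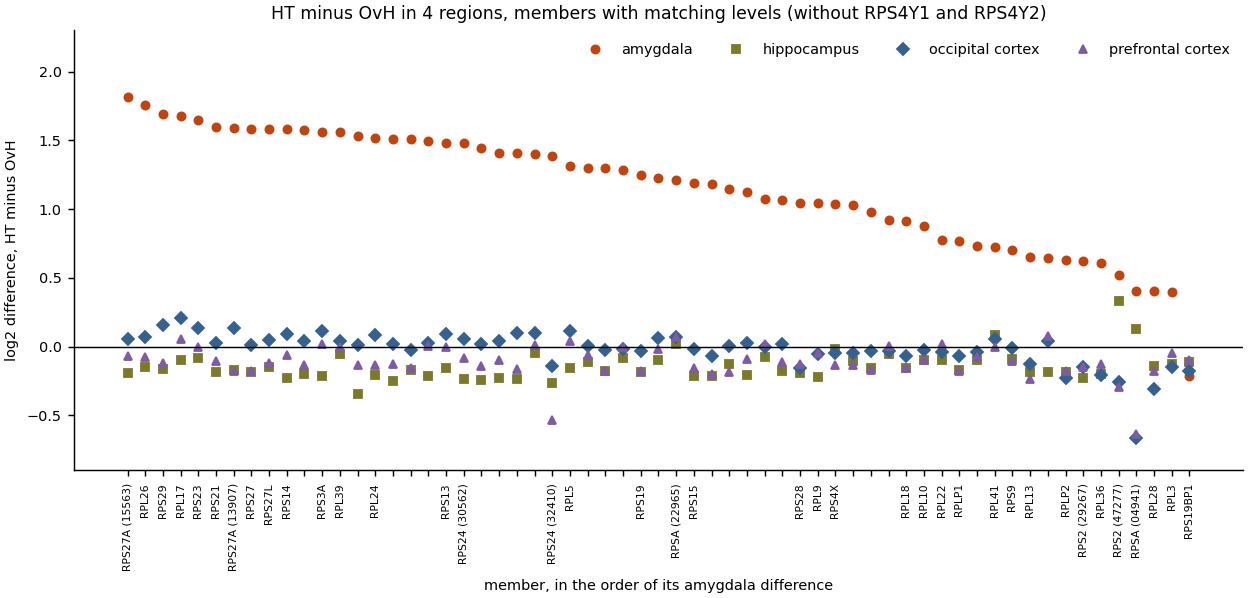
Log2 difference between HT and OvH animals (y axis) in each of the 4 regions for the members with matching levels, in the order of their amygdala difference (x axis). Amygdala differences run from 1.81 (RPS27A) down to -0.21 (RPS19BP1), while those of the other 3 regions lie mostly below 0 in hippocampus and prefrontal cortex and on both sides of 0 in occipital cortex, and did not pass in any member.

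Whether the HT effect itself differed between amygdala and the other regions was tested within animals, as the amygdala value minus the mean of the other 3 regions. By limma 0 of 61 members passed, as 0% of all 13468 rows with matching levels did (3083 rows at an unadjusted p under 0.05). The limma adjusted p of the members ran from 0.0606, which was also the lowest over all rows, to 0.811. Of the 61 members 58 had an unadjusted p under 0.05, and 60 of 61 differences were above 0. Their median was 1.32, against -0.002 for all rows. RPS27A had 1.88 (SE 0.43), RPL26 1.81 (SE 0.43) and RPS29 1.73 (SE 0.42), each with a limma adjusted p of 0.0606. RPL28 (0.61, SE 0.32, limma adjusted p = 0.259) and RPLP2 (0.82, SE 0.35, limma adjusted p = 0.172) were farther from the threshold.

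This count turned on single animals and on the scaling. Members called higher numbered 49 without animal 30, 46 without 31, 44 without 32, 53 without 39 and 48 without 40, and 0 without each of the other 9 animals. Without both 30 and 43 the count was 0, with a median of 1.40. With equal totals 28 members passed, and with no replicate block, which treats all libraries as independent, 42 did. Only the smallest adjusted p of the members lay near the threshold, and no difference between the HT effects of the regions was called in the planned test.

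Among hippocampus, occipital and prefrontal cortex few ribosomal protein transcripts differed. Between hippocampus and occipital cortex 1 of 63 members was higher and 1 lower by limma with animals as blocks, where 50.7% of all 16354 rows differed in either direction (28.1% higher, 22.6% lower), and 6 members had an unadjusted p under 0.05. Between hippocampus and prefrontal cortex 0 were higher and 1 lower, where 43.4% of all rows differed (20.9% higher, 22.6% lower), and 2 members had an unadjusted p under 0.05. Between occipital and prefrontal cortex 0 were higher and 3 lower, where 47.9% of all rows differed (19.7% higher, 28.2% lower), and 5 had an unadjusted p under 0.05. The median differences of the members were -0.03, -0.10 and -0.02, and -0.08, -0.13 and -0.05 without animals 30 and 43. The standard errors were also larger for the members, with a median of 0.19 against 0.13 for all rows.

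Only 4 members took part in these calls. The second RPSA identifier had 11.8, 34.9 and 99.2 normalized reads (lowest, median and highest of 14) in hippocampus, against 2.21, 18.0 and 52.8 in occipital cortex, a difference of 1.22 (SE 0.24, limma adjusted p = 6.51e-05). It was also lower in occipital than in prefrontal cortex, where it had 11.7, 27.7 and 81.9 (-0.87, SE 0.24, limma adjusted p = 0.00304). RPL41 had 49.0, 61.0 and 106 in hippocampus and 46.8, 68.2 and 115 in occipital cortex, both lower than the 96.7, 117 and 180 in prefrontal cortex (-0.88, SE 0.14, limma adjusted p = 1.05e-05, and -0.77, SE 0.14, limma adjusted p = 5.36e-05). Both rows held few reads in every region.

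RPL39, a small protein of the peptide tunnel, had 8.65, 12.8 and 43.5 kreads in occipital cortex and 11.1, 18.0 and 33.6 kreads in prefrontal cortex (-0.39, SE 0.16, limma adjusted p = 0.0426). RPS13 had 8.42, 13.99 and 46.6 kreads in hippocampus and 14.2, 17.3 and 71.2 kreads in occipital cortex (-0.44, SE 0.18, limma adjusted p = 0.0480). The ranges of both overlapped between the regions. RPS13 lost its call without each animal except 35, 39, 42 and 43 (limma adjusted p 0.0542 to 0.122), and RPL39 without 31, 32, 35, 36, 38, 39, 41 or 42 (0.0520 to 0.104).

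Without animals 30 and 43, hippocampus against occipital cortex gave 3 members higher and 5 lower. The higher ones were the second RPSA identifier, RPLP2 (0.46) and RPL28 (0.42), and the lower ones RPS13, RPS3A, RPL24, RPL5 and RPL9 (-0.54 to -0.34). Leaving out single animals gave 4 higher without 30, 2 without 35 and 3 without 37, and 10 lower without 43, 3 without 42 and 0 without 30, 31, 32, 33, 34, 36, 37, 38, 40 or 41. Hippocampus against prefrontal cortex gave 1 higher and 5 lower without 30 and 43, and 7 lower without 43 alone. Occipital against prefrontal cortex gave 5 lower without 30 and 43, and 5 without 30, 33 or 37.

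Within groups the members varied together from animal to animal. Over the 61 matching members without RPS4Y1 and RPS4Y2, the first principal component of the deviations from the group means held 63.7% of the variance in amygdala, 81.4% in hippocampus, and 80.3% and 60.3% in the occipital and prefrontal cortex. With the second RPS2 identifier left out, which was singled out after its values were seen, it held 79.5, 90.6, 88.5 and 79.6%. Over the rows with a mean of at least 1000 in the region it held 35.1, 42.8, 48.9 and 49.7%. The median within-group SD (log2) of the members was 0.55 in amygdala, 0.76 in hippocampus, and 0.67 and 0.37 in the occipital and prefrontal cortex, against 0.31, 0.35, 0.32 and 0.25 for those rows. In hippocampus without animals 30 and 43, whose libraries held the lowest and the highest share, the first component held 77.0% (90.5% without the second RPS2 identifier, 48.9% over those rows), and the median SD was 0.62, against 0.28 for those rows. These are descriptions, since members of a library share its depth and scaling.

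The members that differed most between HT and OvH amygdalas tended to vary more between animals of a group elsewhere. Across 61 members, Spearman's rho of the amygdala difference with the within-group SD was 0.56 in hippocampus, and 0.67 and 0.47 in the occipital and prefrontal cortex. The 20 members with the largest amygdala differences (median 1.58) had a median SD of 0.81 in hippocampus, and 0.75 and 0.42 in the occipital and prefrontal cortex. The 20 with the smallest (median 0.68) had 0.64, 0.52 and 0.33. In hippocampus without animals 30 and 43 rho was 0.48, and the median SDs were 0.66 and 0.52. Spearman's rho of the amygdala difference with the HT minus OvH difference of the region itself was -0.29 in hippocampus (0.45 without animals 30 and 43), and 0.78 and 0.18 in the occipital and prefrontal cortex, over comparisons that share their animals. These correlations run across genes, which are not independent replicates, and carry no test.

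The second identifier of RPS2 followed the animal and not the group. In amygdala it had 5.65 to 17.5 kreads in animals 32, 35, 38, 41, 42 and 43 and 0.270 to 0.990 kreads in the other 8 animals. The same 6 animals had 1.64 to 4.44 kreads in occipital cortex, with 0.126 to 0.977 kreads in the other 8, and 1.76 to 8.47 kreads in prefrontal cortex, with 0.154 to 0.542 kreads in the other 8. Of these 6 animals 3 are HT and 3 OvH. In hippocampus the animals 32, 35, 38, 41 and 42 had 2.14 to 8.85 kreads, but the library labelled animal 43 had 0.534 kreads, among the other 8 at 0.139 to 0.989 kreads. Animal 43 had 6.53 kreads in amygdala, 3.56 kreads in occipital cortex and 3.25 kreads in prefrontal cortex, so that its hippocampus library, one of those with Y-linked transcripts, stood apart from its other regions here as well. The main identifier of RPS2 showed no such gap, with 37.6 to 97.0 kreads over the 14 amygdalas. Whether the rows of this symbol share reads could not be told from the table.

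**Figure D5:**
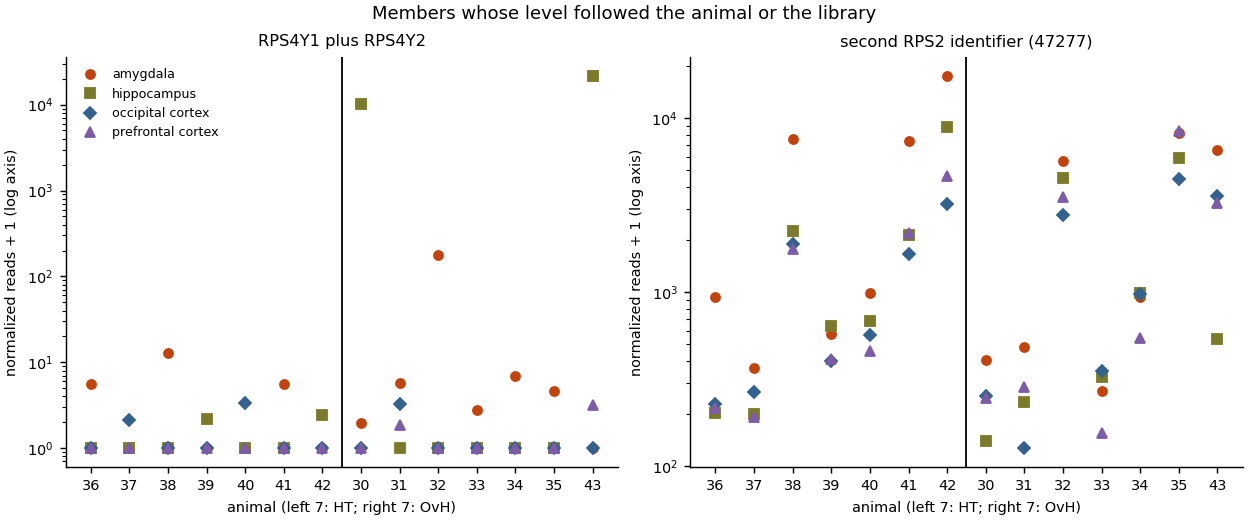
Normalized reads plus 1 (y axis, log scale) of RPS4Y1 and RPS4Y2 together (left) and of the second RPS2 identifier (right) by animal, HT on the left and OvH on the right of each panel, with a point for each region. The Y-linked copies stand out in the hippocampus libraries labelled 30 and 43 and less in the amygdala of animal 32, and the RPS2 row is high in all regions of animals 32, 35, 38, 41 and 42 and in all regions but hippocampus of animal 43.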

How the data were processed

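Libraries were stranded and made from messenger RNA, per the labels' protocols. Per the submitters' processing notes, reads were handled with FastQC 0.1.1.2, Trimmomatic, STAR 2.7.3a and edgeR 3.28.0 on the build Mmul_10. The counting program, its strand setting and its treatment of reads that match several genes are not given in the sources used here, so values of paralogs and of symbols on 2 identifiers are uncertain. The deposited table holds the authors' upper-quartile normalized counts, a signal per gene and library. Whole read counts were recovered from the deposited signal by undoing the scaling (100% of values whole within 0.01 reads) and used for edgeR 4.0.16 and DESeq2 1.42.0 as alternatives.

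HT was compared with OvH in each region with limma 3.58.1 (R 4.3.3), fitted to log2 of the signal plus 1 with a trend on intensity, over rows with a mean of at least 10, with Benjamini-Hochberg adjustment over all rows and a threshold of 0.05 on two-sided p. The difference of the HT effect used within-animal differences, and regions were compared over 42 libraries with the animal as a block. HT and OvH animals are different animals, so their comparison has no pairs. Regions are paired by the animal in the labels, and deviations from group means correlated on average by 0.287 to 0.494 between regions of an animal. Among 168 library pairs within groups the lowest chi-square was 35.55 for each degree of freedom, so no library was a near copy of another in its group. These pairs do not cover libraries of different groups. The steps were tested on simulated data.

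Members were named if they were the 10 largest differences that passed in amygdala, did not pass there, belonged to a fixed set of stalk proteins, paralogs and well-known members, had one of the 3 smallest p in another region or passed there, lay next to the matching limit, or belonged to the lists. The members and lists were chosen with earlier results of these data known. A list of short proteins was planned and not made, because lengths were not used here. RPL3L, RPL10L, RPL26L1 and RPL39L are not analysed here either, and a few members and list genes that the counts include are not reported here by name.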

Additional observations from a re-analysis of the deposited data

Results flagged for a closer look

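Of 66 groups of 7 libraries checked for a value far from the others, 5 held one, and chance alone flags about 1 in 20 groups. The median position of the members in amygdala, as log2 against the mean of all amygdalas, was -0.487 in HT animal 39, below the other 6 HT animals. The share of the members in prefrontal cortex was 4.68% in HT animal 40, above the other 6 HT animals, and the median position of the members in that library was -0.518, the highest of the HT prefrontal cortices. RPS4Y1 had 113 and RPS4Y2 63.3 normalized reads in the amygdala of OvH animal 32, far above the other OvH amygdalas. The source of these Y-linked reads was not tested.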

How the results depend on the processing

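In amygdala 46 to 74 members were higher and 0 lower under the 11 alternatives that keep all animals, and 59 to 69 higher and 0 lower on leaving out single animals, against 65 and 0. The lowest count came with the myelin covariate (46) and the highest with array weights (74), and all 56 libraries with the animal as a replicate block gave 61. The single reversal was RPS19BP1, at 0.014 with array weights against -0.21. In hippocampus DESeq2 called 2 members lower. For the difference of the HT effect 28 members were higher with equal totals and 42 with no replicate block, and 0 to 53 on leaving out single animals, against 0. For hippocampus against occipital cortex the lower members numbered 3 with equal totals and 0 with no filter, no intensity trend or no replicate block, with 3 higher and 5 lower without animals 30 and 43, 1 to 4 higher and 0 to 10 lower on leaving out single animals, and 0 and 0 among members within 1 of the amygdala level. For hippocampus against prefrontal cortex they numbered 2 lower with equal totals, 1 higher and 5 lower without animals 30 and 43, and 1 to 7 lower on leaving out single animals. For occipital against prefrontal cortex they numbered 5 lower with equal totals and without animals 30 and 43, 2 to 5 on leaving out single animals, and 1 among members within 1 of the amygdala level. The cause of these changes was not tested. Low read numbers limit mainly RPL41 and the second RPSA identifier, and the reason for these low numbers was not tested.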
